A study of Homo sapiens with 2 samples.

Results

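Mediator is a large complex that passes signals from DNA-bound transcription factors to RNA polymerase II, and its subunits were compared here between MDA-MB-231 cells with a CDK14 knockdown and their control. Of the 29452 gene rows in the table, 33 were taken as Mediator subunits: every row named MED with a number, with or without a final L, together with CDK8, CDK19 and CCNC. MDA-MB-231 is a widely used line from a human breast carcinoma that lacks hormone receptors. The first group carried a hairpin against the kinase gene CDK14 (CDK14-sh) and the other a scramble control (SC), each with 1 library of mRNA sequencing. No other treatment, allele or time is labelled, and the number of hairpins and clones behind a library is not given in the labels. The subunits were chosen, and MED19 was set apart from the others, with the ratios between these same libraries known. All values below are therefore a description of the 2 libraries, without a replicate check and without a test. In bulk RNA, fewer cells with a transcript and less of it per cell cannot be told apart.

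Reads assigned to gene rows numbered 15478156 in CDK14-sh and 17217564 in SC. Levels are in RPKM, reads scaled by exon length and by the library's assigned reads. Exon length is summed over a row's exons and need not match the transcript expressed, so levels of different genes compare only roughly. Folds are ratios of RPKM between the libraries, followed by their 95% Clopper-Pearson counting interval in parentheses, which covers counting error only. CDK14, the target of the hairpin, stood at 0.548 RPKM (58 reads) in CDK14-sh against 2.48 RPKM (292 reads) in SC. Of 6 markers of the line, VIM, CD44, EGFR, CAV1 and AXL were above 1 RPKM in both libraries, and SPARC was at 0.0669 and 0.0481 RPKM. The list summed to 411 RPKM in CDK14-sh and 541 in SC. Among 8 luminal epithelial markers 4 reached 1 RPKM in both libraries, namely KRT8, KRT18, EPCAM and GATA3 (summed level of the list 50.3 and 76.6 RPKM). KRT8 was the highest of the list, at 27.7 RPKM in CDK14-sh and 48.6 RPKM in SC, and EPCAM stood at 5.46 and 5.33 RPKM. PGR and FOXA1 stayed below 1 RPKM. The estrogen receptor gene ESR1 was at 0.0379 and 0.00852 RPKM. CDH1, which encodes E-cadherin, was near 0 in both libraries, with 0 reads in CDK14-sh and 2 reads (0.0188 RPKM) in SC. Leukocyte (5.26 and 5.30 RPKM), endothelial (1.65 and 1.86) and fibroblast lists (2.01 and 1.67) each had 1 marker of at least 1 RPKM, and VWF, DCN and LUM were listed at 0 in both libraries. Whether these marker levels bear on the Mediator ratios was not tested.

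Mediator is built from a head, a middle and a tail module held together by the scaffold subunit MED14, and a kinase module that binds reversibly. Head and middle contact the polymerase and the general transcription factors, the tail is the main landing site for activators, and the kinase module, with cyclin C and CDK8 or CDK19, blocks polymerase binding while attached and phosphorylates transcription factors. CDK8 is known as an oncogene that acts through Wnt/beta-catenin signalling in colon cancer, and MED1 as the subunit through which nuclear receptors, the estrogen receptor among them, recruit the complex. Subunits at the borders are placed differently by different sources. MED27, MED28, MED29 and MED30 are counted in the head here and MED19 in the middle.

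All 33 subunits had reads in both libraries, and 32 reached 1 RPKM in the higher library, the level required for the comparisons below. The exception was MED12L, at 0.271 RPKM (53 reads) in CDK14-sh and 0.193 RPKM (42 reads) in SC. MED9 passed only through SC, where it stood at 1.66 RPKM against 0.980 RPKM in CDK14-sh. MED1 had the highest level in both libraries, with 15.3 RPKM in CDK14-sh and 14.3 RPKM in SC. MED26 was the lowest of the 32 in SC, at 1.49 RPKM, so subunits of the same complex differed widely in RPKM within a library. Summed over the 32 subunits, Mediator transcripts came to 196 RPKM in CDK14-sh and 184 RPKM in SC, a ratio of 1.06.

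**Figure D1:**
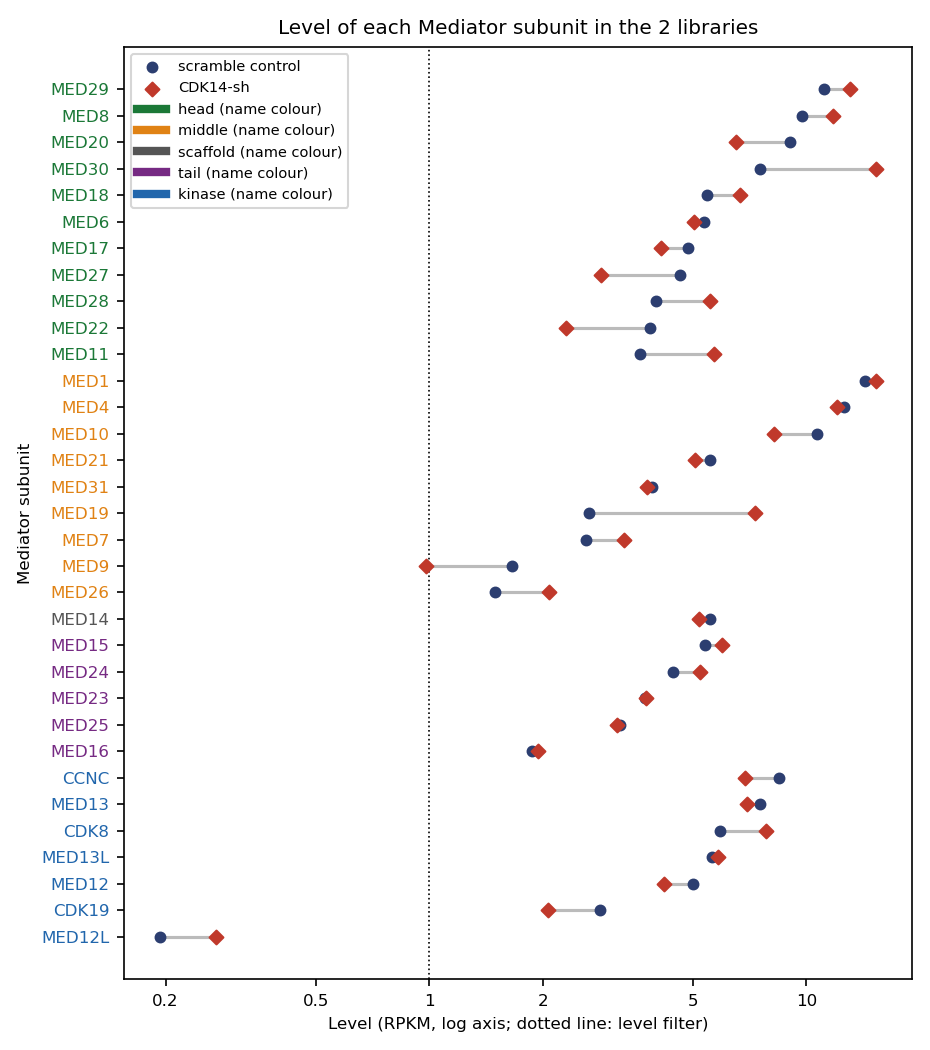
Level of each of the 33 Mediator subunits in RPKM (log axis) in the SC library (circles) and the CDK14-sh library (diamonds), grouped by module through the colour of the names. MED19 has the longest line, from 2.65 to 7.32 RPKM, while most subunits lie close together in both libraries, from MED12L below 0.3 RPKM to MED1 near 15 RPKM.

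Most subunits differed by less than 1.5-fold between the libraries (26 of 32), and as many were higher as lower in RPKM. Ratios on the log2 scale were taken with 0.1 RPKM added to each level, which understates the change of low genes. Of the 32 subunits, 16 had a ratio above 0 and 16 below, with a median of -0.01, against a median of 0.04 over all 14878 genes passing the same filter. Rescaling both libraries to a common sum of RPKM (TPM), which shifts a ratio without pseudocount by -0.15, gave 11 above and 21 below, as MED1, MED13L, MED15, MED16 and MED23 changed sign. MED19 and MED30 were 2-fold or more higher in CDK14-sh, and 0 subunits passed 2-fold in the other direction. Over all genes, 3.21% passed 2-fold upward and 3.47% downward, and over the 10435 protein-coding ones 1.04% and 2.17%. At 1.5-fold, 3 subunits were higher (MED19, MED30 and MED11) and 3 lower (MED22, MED9 and MED27), against 9.11% and 9.55% of all genes. Since the subunits were chosen with this contrast known, nothing is read from these counts.

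The counting interval lay above a ratio of 1 for 11 subunits, below it for 10 and held 1 for 11. Over all 14878 genes it lay above 1 for 27.3% and below 1 for 22.6%. Over the 10386 protein-coding genes that reached 30 reads in either library these shares were 31.6% and 27.2%. The standard deviation of the log2 ratios was 0.46 over the 32 subunits, 0.39 without MED19, 0.42 over those protein-coding genes and 0.65 over all 14878 genes. These spreads were not tested against each other.

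**Figure D2:**
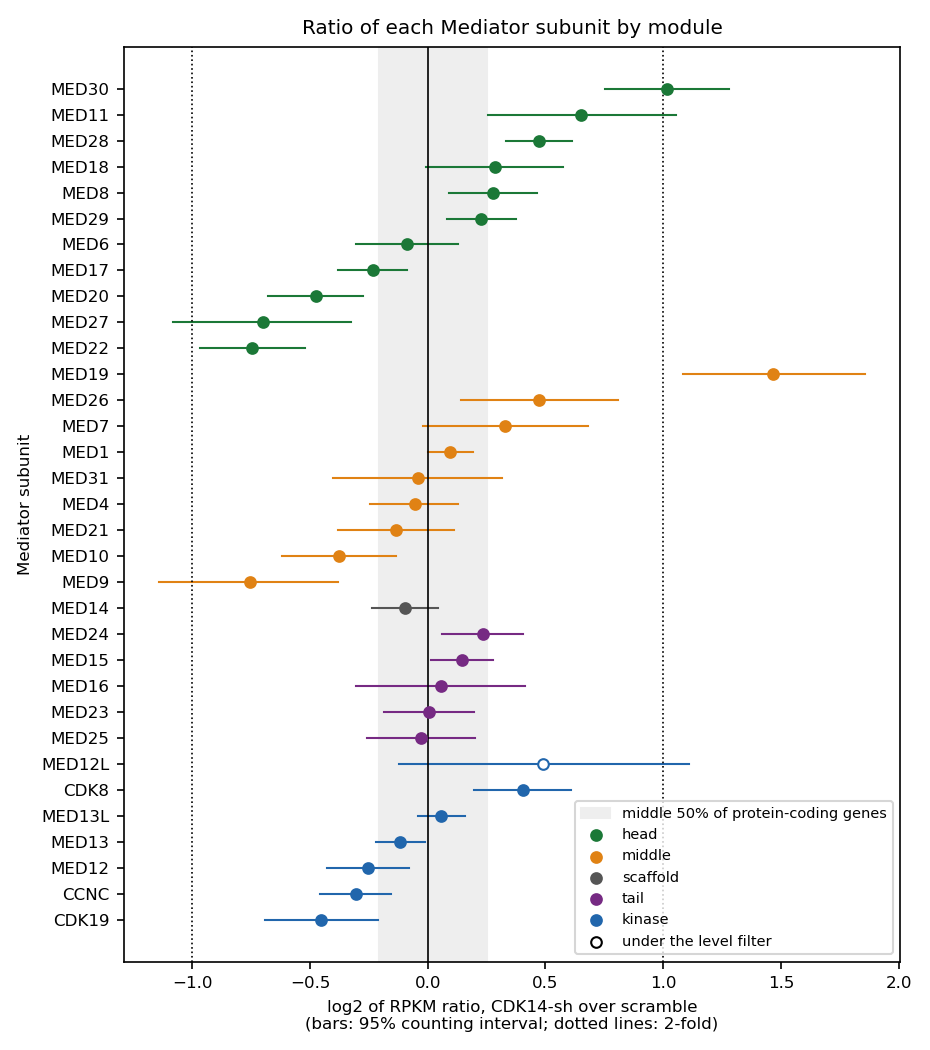
Log2 of the plain RPKM ratio, CDK14-sh over SC, for each subunit by module, with 95% counting intervals as bars, 2-fold as dotted lines and the middle 50% of protein-coding genes that reached 30 reads shaded (-0.21 to 0.25, taken with 0.1 RPKM added). MED19 lies farthest to the right and its bar stays above 2-fold, the 5 tail subunits all lie close to 0, and head subunits spread widest to both sides apart from MED19.

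MED19 stood apart from the rest of the complex. It is a small subunit known as a contact of Mediator with the repressor REST. Its level was 7.32 RPKM (201 reads) in CDK14-sh and 2.65 RPKM (81 reads) in SC, which is 2.76-fold higher (2.12 to 3.62). In SC it ranked 28 of 33 subunits by level and in CDK14-sh 8. Its log2 ratio of 1.43 lay 0.42 above the next subunit, MED30, and 1.46 above the median of the other 31. Of those 31, 26 stayed within 1.5-fold, where 9.11% of all genes were past it upward and 9.55% downward. Among the 10386 protein-coding genes MED19 had the 20th highest ratio, and MED30 the 98th. The ratio is the value for which MED19 was singled out, so its place at the top of the list is no finding. Across 8 other settings of pseudocount, filter, scaling and rows it ranged from 1.19 to 1.48.

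The MED19 row lies on chromosome 11 from 57703714 to 57712221 on the minus strand (GRCh38) and covers 1775 bases of exon, none shared with another row. The nearby genes ZDHHC5 and TMX2 differed less: ZDHHC5 was 1.31-fold higher (1.22 to 1.41) and TMX2 1.09-fold higher (1.00 to 1.19). The 250 bases before the RefSeq start of MED19, a start inside this row, are printed because no other subunit had as large a ratio. They come from RefSeq (GRCh38.p14, chr11:57712216-57712465, minus strand, shown 5′ to 3′ along the gene), with capitals on matches to the letters CCAAT (the CCAAT box) and GGGCGG (a core bound by SP and KLF factors) on either strand.
MED19: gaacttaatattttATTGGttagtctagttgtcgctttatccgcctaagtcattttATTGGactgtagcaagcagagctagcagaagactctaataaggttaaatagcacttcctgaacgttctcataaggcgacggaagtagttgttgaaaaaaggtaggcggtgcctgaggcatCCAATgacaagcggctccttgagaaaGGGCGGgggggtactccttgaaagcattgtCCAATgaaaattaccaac

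The window held 4 CCAAT matches, starting 236, 194, 74 and 18 bases before the start, and 1 GGGCGG match at 48 bases. At least 4 CCAAT matches occurred in the same 250 bases of 1.32% of 14892 protein-coding genes, and in no other of the 25 subunits with a RefSeq window. The cutoff of 4 is the count of MED19 itself, taken after its ratio was seen, so nothing is read from this share. MED6, MED8, MED13, MED14, MED21, MED22, MED28 and MED30 had no window here. In windows from 250 bases before to 50 after the start, the ETS core CCGGAAG was found on either strand in 7 of 25 subunits (16.7% of protein-coding genes), the YY1 core ATGGCGG in 6 (9.37%) and the NRF1 core GCATGCG in 2 (6.15%). GGGCGG was found in 16 of 25 subunits (65.4% of protein-coding genes), CCAAT in 10 (42.3%) and TATAAA, the TATA box, in 2 (12.2%). Median log2 ratios with and without a match were 0.23 and -0.03 for the ETS core, 0.05 and -0.02 for the YY1 core and -0.08 and 0.03 for the NRF1 core. They were 0.03 and 0.02 for GGGCGG, 0.10 and -0.04 for CCAAT and 0.19 and -0.01 for TATAAA. A match of letters is a description of these windows and shows no binding.

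The head module, which contacts the polymerase and the general factors, spread to both sides. The median log2 ratio over its 11 subunits was 0.23, with 6 above and 5 below 0, and -0.086 when MED27 to MED30 are counted with the tail, as some sources do. MED30, a subunit found in animals, was at 15.3 RPKM (340 reads) in CDK14-sh and 7.54 RPKM (187 reads) in SC, 2.02-fold higher (1.69 to 2.43). With 1 RPKM added to each level, in TPM, or with the median ratio of all genes set to 0, MED30 fell short of 2-fold. MED28, which has also been described at the actin cytoskeleton, was 1.39-fold higher (1.26 to 1.53), with 5.54 RPKM in CDK14-sh and 3.99 RPKM in SC. In the MED28 row 32.1% of exon bases are shared with FAM184B on the other strand, which stood at 0.732 and 0.868 RPKM. MED29 (1.17-fold higher, 1.06 to 1.30) and MED8 (1.21-fold higher, 1.06 to 1.38) differed less.

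Head subunits that bind each other directly went different ways. MED11 and MED22 pair with each other in the head. MED11 was at 5.69 RPKM (130 reads) in CDK14-sh and 3.62 RPKM (92 reads) in SC, and MED22 at 2.30 RPKM (257 reads) and 3.85 RPKM (479 reads). In RPKM, over summed exon lengths of 1477 bases (MED11) and 7224 bases (MED22), the partners were similar in SC, and MED11 was the higher in CDK14-sh. MED11 was 1.57-fold higher (1.19 to 2.08) and MED22 1.68-fold lower (1.44 to 1.96). The MED11 row shares 36.9% of its exon bases with rows on the other strand. MED18 and MED20 form the movable jaw of the head, tethered by MED8: MED18 stood at 6.66 RPKM in CDK14-sh and 5.47 RPKM in SC, 1.22-fold higher with an interval that holds 1 (0.995 to 1.49). MED20 stood at 6.52 RPKM (331 reads) and 9.07 RPKM (512 reads), 1.39-fold lower (1.21 to 1.60). MED27 was at 2.85 RPKM (93 reads) in CDK14-sh and 4.63 RPKM (168 reads) in SC, 1.62-fold lower (1.25 to 2.12). MED17, the architectural core of the head, was 1.18-fold lower (1.06 to 1.30), and the interval of MED6 held 1.

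In the middle module, which forms the hinge of the complex, the median over 9 subunits was -0.04, and -0.05 over the 8 without MED19. MED9 was at 0.980 RPKM (91 reads) in CDK14-sh and 1.66 RPKM (171 reads) in SC, 1.69-fold lower (1.30 to 2.20). MED10 was at 8.21 RPKM (239 reads) and 10.7 RPKM (345 reads), 1.30-fold lower (1.10 to 1.54). These were the 2 middle subunits with an interval below 1. MED26, which docks the elongation machinery, was at 2.07 RPKM (171 reads) and 1.49 RPKM (137 reads), 1.39-fold higher (1.10 to 1.75). MED26 shares 50.1% of its exon bases with other rows, 2 of them on its own strand and at higher levels (26.9 and 13.7 RPKM in CDK14-sh), so its reads are uncertain. MED1 was 1.07-fold higher (1.00 to 1.14). MED7 and MED21, which form the hinge, stood at 1.26-fold higher (0.987 to 1.60) and 1.10-fold lower (0.927 to 1.30), and the intervals of MED4 and MED31 held 1 as well. MED31 shares 58.3% of its exon bases with TXNDC17 on the other strand.

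The scaffold MED14, around which the modules are arranged, was at 5.18 RPKM (774 reads) in CDK14-sh and 5.54 RPKM (921 reads) in SC, 1.07-fold lower with an interval that holds 1 (0.971 to 1.18). Tail subunits, which bind activators, had the narrowest range, from -0.03 to 0.23 on the log2 scale with a median of 0.05 over 5 subunits. MED24 was 1.18-fold higher (1.04 to 1.33) and MED15, a target of SREBP and SMAD factors, 1.11-fold higher (1.01 to 1.21). MED23, through which the MAPK-responsive factor ELK1 acts, was at 3.75 RPKM in CDK14-sh and 3.74 RPKM in SC, a ratio of 1.00 (0.878 to 1.14). MED16 and MED25 also had intervals that hold 1. With 5 subunits, whether the tail varies less than the other modules was not tested.

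Kinase module transcripts had a median log2 ratio of -0.18 over 6 subunits, with 4 of them below 1 by their counting interval, as were 22.6% of all genes and 27.2% of the protein-coding genes that reached 30 reads. The catalytic subunits differed in direction. CDK8 was at 7.82 RPKM (428 reads) in CDK14-sh and 5.91 RPKM (360 reads) in SC, 1.32-fold higher (1.15 to 1.53), and its paralog CDK19 at 2.07 RPKM (240 reads) and 2.83 RPKM (365 reads), 1.37-fold lower (1.16 to 1.62). CDK8 made up 79.1% of their summed RPKM in CDK14-sh and 67.6% in SC, and the sum was 9.89 and 8.74 RPKM. CCNC, encoding the cyclin that both kinases need, was at 6.86 RPKM (612 reads) and 8.48 RPKM (842 reads), 1.24-fold lower (1.11 to 1.37). MED12, which activates the kinase and is mutated in uterine fibroids, was 1.19-fold lower (1.06 to 1.34), and MED13, which ties the module to core Mediator, 1.08-fold lower (1.01 to 1.17). MED13L was within counting error at 1.04-fold (0.971 to 1.12). MED12 made up 93.9% of the MED12 and MED12L sum in CDK14-sh and 96.3% in SC. Exons of MED12L overlap IGSF10, and 53 and 42 reads leave its ratio of 1.40 wide (0.919 to 2.16).

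The 5 subunits with the lowest ratios, MED22, MED9, MED27, MED20 and CDK19, come from the head, the middle and the kinase module, and all 5 carry a 7-base word in the 3′ untranslated region (UTR) that had been picked earlier from lower genes of these same libraries. The words were searched on the transcript strand in the longest 3′ UTR of each protein-coding gene in GENCODE v29. Of the 4 words, GTCATGC overlaps TCATGCA by 6 bases, and ATCCATA overlaps TCCATAA likewise. Sites are printed with 8 bases on either side, the word in capitals, to show which word each transcript holds. No word is held by all 5: MED22 and MED9 hold ATCCATA, MED20 and CDK19 hold TCATGCA, and MED27 holds GTCATGC. MED28 is added as a subunit with a word and a higher level. It holds 2 words, GTCATGC and TCATGCA, at 3 sites, of which only the GTCATGC site is printed. In the order printed they lie at chr9:133343937-133343959 and chr9:133343749-133343771 (MED22), chr17:17491692-17491714 (MED9), chr9:131860176-131860198 (MED27), chr6:41905828-41905850 (MED20), chr6:110611086-110611108 (CDK19) and chr4:17628063-17628085 (MED28) on GRCh38, on the plus strand for MED9 and MED28 and the minus strand for the others.
MED22, base 167 of the UTR: caattcacATCCATAtgccaggg
MED22, base 355: ccttctgaATCCATAtgtagaga
MED9, base 208: tcgtgtagATCCATAtgtctaga
MED27, base 351: tgggtatcGTCATGCggggttct
MED20, base 1233: tccagttcTCATGCAccctgatc
CDK19, base 3438: gaagtagaTCATGCAgtgacata
MED28, base 4276: actgttcgGTCATGCcattctcc

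A word occurred in 12 of the 33 subunits. Besides those printed these were CCNC, MED4, MED12L, MED13, MED13L and MED17, and MED19, MED30 and MED11 held none. Among the 11 carriers that passed the level filter the median log2 ratio was -0.30 and 9 lay below 0, with MED28 and MED13L above. Among the 21 subunits without a word it was 0.14 and 7 lay below 0, of which MED10 was the lowest at -0.37. The same split over 10372 protein-coding genes of that depth with a 3′ UTR gave medians of -0.09 for 2606 carriers (25.1% of the genes) and 0.07 for the others. Of these carriers 60.5% lay below 0, and of the others 41.2%. Because the words were chosen from these ratios, the split supports nothing about them, and whether it is particular to Mediator was not tested.

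Carriers have longer 3′ UTRs, with a median of 2902 bases against 996 for subunits without a word. From 1000 to under 3000 bases the medians were -0.30 for 5 carriers and 0.27 for 9 other subunits. Protein-coding genes of that class had -0.11 and 0.06, and 26.2% of them carried a word. The words were chosen from these same ratios, so medians within a length class are a description. The part of 3′ UTR length was not tested. Under 1000 bases MED27 was the single carrier of 12 subunits, where 6.50% of genes carried a word. From 3000 bases, where 57.6% of genes carried a word, 5 of 6 subunits did and 3 of these lay below 0. The median of these 5 carriers was -0.12, and MED14, the single subunit without a word there, stood at -0.095, so a split cannot be judged. Protein-coding genes with and without a word had medians of -0.07 and 0.03 in that class. Under 1000 bases they had -0.15 and 0.09. Singly, GTCATGC was found in 5.69% of all 19817 UTRs searched, TCATGCA in 9.41%, ATCCATA in 7.13% and TCCATAA in 8.66%. Exon length also moved with the ratios: the 16 subunits of at most 4776 bases had a median of 0.14 and the 16 longer ones -0.06, and protein-coding genes divided at the same length had 0.10 and -0.02. The part of length in the subunit ratios was not tested.

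**Figure D3:**
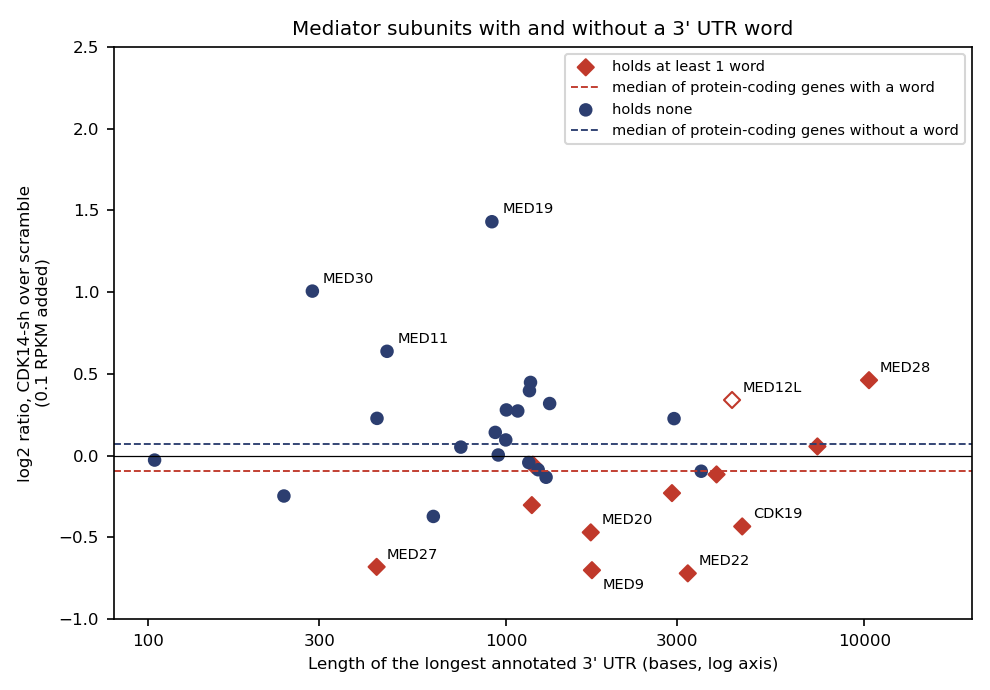
Log2 ratio (CDK14-sh over SC, 0.1 RPKM added) of the 33 subunits against the length of the longest annotated 3′ UTR (log axis). Diamonds hold at least 1 of the 4 words, circles none, the open diamond is MED12L, and dashed lines are medians of protein-coding genes with and without a word. The 5 lowest points are all diamonds, and MED19, MED30 and MED11 at the top are circles.

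Partners of Mediator in transcription initiation and elongation were set beside it in 7 lists of 92 genes passing the filter. With 0.1 RPKM added, 1 of these passed 2-fold upward and 0 downward, and at 1.5-fold 3 were higher and 1 lower. The shares of all genes given above were 3.21% and 3.47% at 2-fold and 9.11% and 9.55% at 1.5-fold. Over the 10435 protein-coding genes passing the filter, the 2-fold shares were 1.04% upward and 2.17% downward. The median over the 92 genes was 0.03. RNA polymerase II, the enzyme that Mediator loads, had a median of 0.25 with 8 of 12 subunits above 0 (0.10 in TPM). It was the highest of the 7 list medians at this level filter, while with at least 5 RPKM Integrator stood higher, at 0.34. The largest polymerase subunit, POLR2A, went the other way, at 80.3 RPKM in CDK14-sh and 106 RPKM in SC. POLR2F was 1.67-fold higher (1.52 to 1.85) and POLR2H 1.49-fold higher (1.34 to 1.65). In TFIID, which recognises core promoters (median 0.15, 11 of 16 above 0), TAF4B was 2.28-fold higher (2.02 to 2.59), TAF3 1.45-fold higher (1.31 to 1.62) and TAF6 1.39-fold lower (1.26 to 1.54).

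TFIIH, whose kinase CDK7 phosphorylates the polymerase tail with the help of Mediator, had a median of 0.09 over 10 genes, and its largest ratios were those of GTF2H3, 1.46-fold higher (1.33 to 1.60), GTF2H5, 1.45-fold higher (1.20 to 1.76), and GTF2H4, 1.27-fold higher (1.06 to 1.52). TFIIA, TFIIB, TFIIE and TFIIF together had a median of -0.004 over 7 genes, with GTF2B 1.31-fold higher (1.13 to 1.53) and GTF2A1 1.25-fold lower (1.18 to 1.34). GTF2E2 had a ratio of 1.10 with an interval that holds 1 (0.971 to 1.25). Pause release and elongation factors, which MED26 recruits in part, had a median of -0.01 over 21 genes. NELFA, a pausing factor, was 1.77-fold higher (1.43 to 2.20), while CCNT2, a cyclin of the pause release kinase, was 1.48-fold lower (1.34 to 1.64) and its inhibitor HEXIM1 1.39-fold lower (1.31 to 1.48). Integrator, which ends transcription of paused polymerase, had a median of 0.10 over 14 genes, with VWA9 1.39-fold higher (1.17 to 1.65), INTS6 1.34-fold lower (1.17 to 1.54) and INTS10 1.30-fold higher (1.16 to 1.47).

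Coactivators and cohesin, which work with Mediator at enhancers, had the lowest median (-0.14), and 9 of 12 genes lay below 0. SMC1A, a ring subunit of cohesin, was 1.62-fold lower (1.57 to 1.67), at 40.2 RPKM in CDK14-sh and 65.1 RPKM in SC. The acetyltransferase gene CREBBP was at 3.63 RPKM in CDK14-sh and 5.46 RPKM in SC and NCOA1 was 1.24-fold higher (1.11 to 1.40). None of the 92 partner genes had a ratio as high as MED19, which was singled out for its ratio, so this is no finding. The largest, TAF4B, had a log2 ratio of 1.17.

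**Figure D4:**
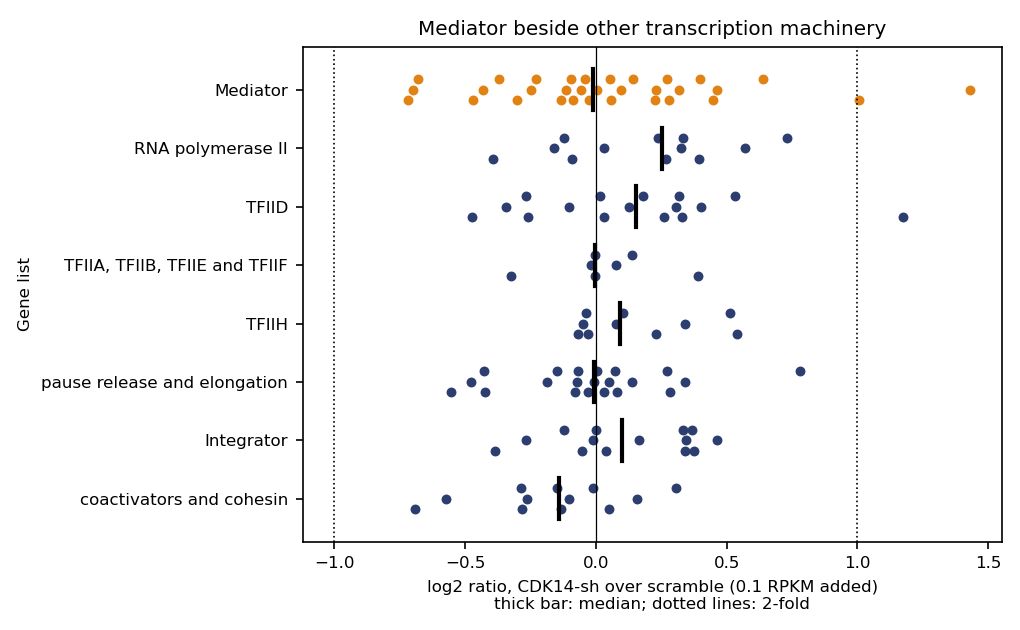
Log2 ratio (CDK14-sh over SC, 0.1 RPKM added) of each gene passing the level filter in Mediator and in 7 lists of its partners, with the median of each list as a thick bar and 2-fold as dotted lines. Mediator's median is -0.01 and the partner medians run from -0.14 for coactivators and cohesin to 0.25 for RNA polymerase II, with MED19 the point farthest to the right.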

How the data were processed

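RNA of each cell population was extracted with Trizol and a strand-marking mRNA library was made, per the labels' protocols. The authors deposited 1 table of RPKM per gene row with exon positions and length, per the file headers. Named without roles in the submitters' processing notes are featureCounts, Bowtie (0.12.2), Subread (1.5.1), GRCh38 and mm8. How strand, overlaps and multiple hits were handled is not stated in the sources at hand, so reads of overlapping rows cannot be told apart. Of 33 subunit rows, 29 had the same start and end as in GENCODE v29 on GRCh38, and MED19, MED13L, MED17 and MED25 did not. Among the 33 rows, 16 shared no exon base with another row and 6 shared over 10%. Multiplying RPKM by exon length gave whole reads, within 0.01 read, for 100% of nonzero values. Intervals were computed from these reads, which may include PCR copies. With 1 library per group no model was fitted. Genes needed at least 1 RPKM in the higher library, and 0.1 RPKM was added before taking log2.

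Subunits, modules, partner lists, markers and words were chosen with earlier results of these data known; motifs and the printed promoter and sites were chosen after the values were seen. Every subunit, CDK14 and the 3 genes of largest ratio in each partner list are named. Read recovery and ratios were tested on simulated data. Software was matplotlib 3.10.9, scipy 1.17.1, pandas 2.3.3, numpy 2.4.6 and Python 3.11.15.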

Additional observations from a re-analysis of the deposited data

How the results depend on the processing

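No paired analysis was possible because there was a single library on each side. Depth limits mainly MED12L (53 and 42 reads) and MED19 (81 reads in SC). It also limits MED9 (91 reads in CDK14-sh), MED11 (92 reads in SC) and MED27 (93 reads in CDK14-sh). Subunits at least 2-fold higher numbered 2, and 1 (MED19) with a pseudocount of 1 RPKM, in TPM and with the median ratio set to 0, since MED30 lies at the threshold. Subunits at least 2-fold lower numbered 0, and 3 at 1.5-fold, where 3 were higher. Of 105 medians under other settings 98 stayed between the medians of the lower and upper interval bounds of the genes listed. The head median log2 ratio was -0.086 when MED27, MED28, MED29 and MED30 were counted in the tail. In TPM, which lowers every ratio, the kinase module stood at -0.33, TFIIA, TFIIB, TFIIE and TFIIF at -0.16 and coactivators and cohesin at -0.29. A floor of 5 RPKM put Integrator at 0.34. Keeping rows that share no exon base put it at 0.33, and coactivators and cohesin at -0.26; both settings admit fewer genes. Single genes gave 381 values, 358 of them inside the gene's own counting interval and 23 outside, and no gene past 2-fold changed sign. Restricting the background to 10435 protein-coding genes gave 1.04% past 2-fold upward and 2.17% downward.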
